A study of Mus musculus with 16 samples.

Results

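The 10 genes described here are macrophage genes of the mouse heart. Csf1r, Adgre1, Cd68 and C1qa are lineage genes, and Timd4, Lyve1 and Mrc1 mark macrophages settled in the tissue. Cx3cr1 encodes the fractalkine receptor, and Ccr2 and its ligand Ccl2 stand for monocytes recruited from the blood. The genes were chosen by symbol, as 10 of the 55573 genes in the count table. All 10 were among the 19955 genes that passed the filter on low counts. The table comes from RNA-seq of ventricle from 16 males, with 4 hearts in each of 4 groups. Every mouse carried aMHC-MerCreMer, a Cre recombinase that the α-myosin heavy chain promoter confines to cardiomyocytes and that tamoxifen activates, together with Trbp-Flox/Flox alleles, so the deletion was aimed at cardiomyocytes and not at macrophages. At 4 weeks of age the Trbp-cKO mice began a course of 5 daily tamoxifen injections (30 mg/kg each), while corn oil alone was injected into the controls. Deletion and tamoxifen therefore go together in this design, and their effects cannot be told apart. In each arm mice underwent sham surgery or TAC, a ligature around the aorta that loads the left ventricle with pressure, and hearts were taken 8 weeks after surgery. The groups are named control sham, control TAC, Trbp-cKO sham and Trbp-cKO TAC, and the study asked how losing Trbp in cardiomyocytes altered the response to pressure.

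The adult heart holds macrophages that were seeded before birth and renew themselves in place, and macrophages that derive from circulating monocytes. TIM-4, the product of Timd4, binds phosphatidylserine on dying cells and, together with LYVE1 and the mannose receptor CD206 (Mrc1), marks the self-renewing resident population. Monocytes enter the tissue when CCR2 on their surface meets CCL2, and pressure overload is known to draw them in. In RNA from whole ventricle, fewer macrophages and less RNA per macrophage cannot be told apart.

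Counts per heart summed to between 45166994 and 68274222, and values are given as CPM (counts relative to the library total) on library sizes adjusted by edgeR's TMM method. Tarbp2, which encodes Trbp, lay at 21.1 to 33.3 CPM in the 8 control hearts and at 7.14 to 11.4 CPM in the 8 Trbp-cKO hearts, so no library went against its label. Cardiomyocyte genes (Myh6, Tnnt2, Actc1, Ryr2, Tnni3 and Pln) summed to between 37100 and 47600 CPM in 13 hearts, to 20000 and 15500 CPM in replicates 1 and 2 of control TAC and to 27300 CPM in replicate 4 of Trbp-cKO TAC. Mitochondrial transcripts took 38.2% and 38.8% of the counts in the same 2 control TAC hearts and 18.1% to 26.3% in the other 14. The genes of the pan-myeloid list, from Ptprc to Tyrobp, were detected in every group and summed to between 355 and 518 CPM in the 16 hearts. A gene was called when its adjusted p (edgeR's quasi-likelihood test, Benjamini-Hochberg over 19955 genes) was at most 0.05 and its absolute log2 fold change at least 0.8.

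Promoter sequence is shown for 3 members, because Timd4 and Mrc1 moved together across hearts while Cd68 moved little. RefSeq promoters on build GRCm38.p6 were held for 5 of the 10 members, Cd68, Cx3cr1, Timd4, Mrc1 and Ccr2. Each sequence below is the 250 bases before the RefSeq start, 5′ to 3′ on the strand of the gene, at chr11:46810549-46810798 on the plus strand for Timd4, chr2:14229164-14229413 on the plus strand for Mrc1 and chr11:69666171-69666420 on the minus strand for Cd68. Capitals mark matches, on either strand, to the core of the PU.1 motif (GAGGAA), the AP-1 motif (TGANTCA) or the core of the Maf motif (TGCTGA), which are transcription factors known from macrophages.
Timd4: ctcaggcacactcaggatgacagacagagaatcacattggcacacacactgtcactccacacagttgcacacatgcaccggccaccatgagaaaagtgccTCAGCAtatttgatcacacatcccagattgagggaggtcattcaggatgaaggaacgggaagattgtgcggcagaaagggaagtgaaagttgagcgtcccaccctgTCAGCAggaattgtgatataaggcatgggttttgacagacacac
Mrc1: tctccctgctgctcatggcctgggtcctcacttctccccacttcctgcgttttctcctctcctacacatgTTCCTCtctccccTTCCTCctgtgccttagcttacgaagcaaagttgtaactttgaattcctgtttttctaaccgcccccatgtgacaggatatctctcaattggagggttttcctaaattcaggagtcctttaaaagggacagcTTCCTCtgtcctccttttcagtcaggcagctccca
Cd68: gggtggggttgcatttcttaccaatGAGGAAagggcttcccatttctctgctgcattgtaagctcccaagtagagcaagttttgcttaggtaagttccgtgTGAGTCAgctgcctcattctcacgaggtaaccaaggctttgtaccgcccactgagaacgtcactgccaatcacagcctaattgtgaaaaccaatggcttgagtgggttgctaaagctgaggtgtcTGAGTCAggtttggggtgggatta

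The Timd4 window held 2 matches to the Maf core, both on the opposite strand, and none to the other motifs. The Mrc1 window held 3 PU.1 matches, all on the opposite strand, and the Cd68 window held 1 PU.1 match and 2 AP-1 matches. No motif was shared between the Timd4 and the Mrc1 window, and no matches overlapped. The windows of Cx3cr1 and Ccr2 held none of the 3 motifs. Among all 32851 promoter windows of this length, 23.3% held the PU.1 core, 6.75% the AP-1 motif and 16.1% the Maf core. These matches describe letters in a window of 250 bases and say nothing about binding.

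C1qa, which encodes a chain of complement C1q secreted by macrophages, had the highest level per exon length. Over the 16 hearts it averaged 59.6 CPM per kb of merged exons (range 46.8 to 82.4), and Csf1r, the receptor for the macrophage growth factors CSF1 and IL-34, followed at 14.5 CPM per kb (12.7 to 16.3). These ranges overlapped neither each other nor that of the lysosomal glycoprotein Cd68 at 7.96 CPM per kb (6.71 to 11). From Cd68 the order ran through the fractalkine receptor Cx3cr1 at 6.84 CPM per kb, the hyaluronan receptor Lyve1 at 5.17, Mrc1 at 3.47, Ccl2 at 3.24 and Adgre1, the F4/80 antigen, at 2.88, and each of these overlapped its neighbours. Timd4 at 0.669 CPM per kb (0.0585 to 1.41) and Ccr2 at 0.543 CPM per kb (0.117 to 1.12) lay below the lowest Adgre1 value and overlapped each other. Timd4 rested on 8 to 187, Ccr2 on 49 to 517 and Ccl2 on 53 to 714 counts per heart, the fewest of the 10 genes by mean CPM. Csf1r shares 14.9% of its 31-base words with Hmgxb3 on the opposite strand, over an overlap of 873 bases, so its level is uncertain to that extent. Cx3cr1 shares 3.28% with Gm33858.

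**Figure D1:**
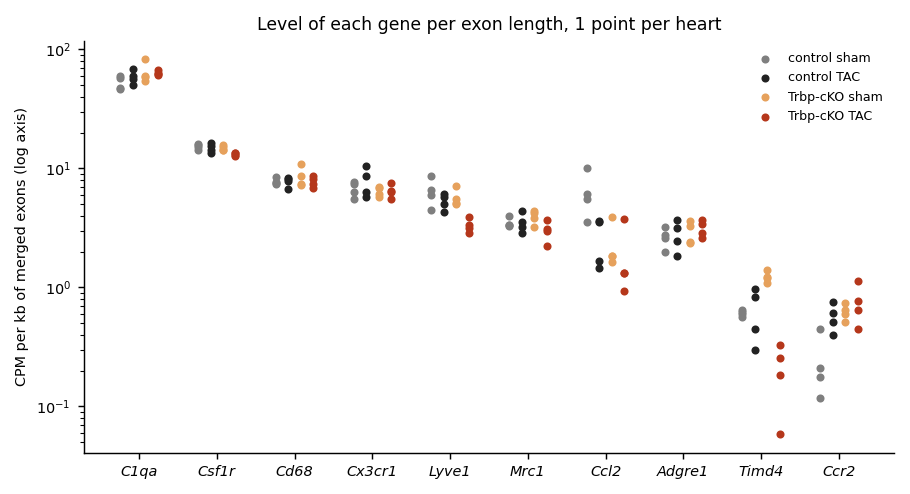
Level of each gene in CPM per kb of merged exons, on a log axis, with 1 point per heart and the 4 groups in different colors. C1qa and Csf1r stand above the other genes, and Timd4 spans 0.0585 to 1.41 CPM per kb.

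The 4 lineage genes varied little between groups. Csf1r (chr18, 61100598 to 61132149) lay at 90.3, 92.3, 81.7 and 87.8 CPM in the control sham hearts and at 82.5, 94.1, 89.8 and 78.5 CPM in control TAC. It lay at 91.3, 82.5, 82.9 and 87.1 CPM in Trbp-cKO sham and at 73.1, 78.0, 77.4 and 74.5 CPM in Trbp-cKO TAC hearts. The 4 Trbp-cKO TAC values were lower than all 12 others, but close to the lowest of them. Group means of Cd68 stayed between 9.74 ± 1.03 CPM (SD, n = 4) in Trbp-cKO TAC and 10.7 ± 2.19 CPM in Trbp-cKO sham hearts, with 1 heart of the latter at 13.8 CPM. Adgre1 means ran from 8.56 ± 1.67 CPM in control sham to 10.2 ± 1.57 CPM in Trbp-cKO TAC, and C1qa means from 55.1 ± 7.40 CPM in control sham to 66.2 ± 13.3 CPM in Trbp-cKO sham. Every pair of groups overlapped for Cd68 and Adgre1. For C1qa the control sham hearts (48.6 to 62.8 CPM) lay below the Trbp-cKO TAC hearts (63.7 to 69.5 CPM), a pair that no contrast compared, and the other pairs overlapped.

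Timd4 (chr11, 46810800 to 46844332, 9 exon blocks on the plus strand) had the largest fitted difference of the 10 genes. The control sham hearts held 1.21, 1.4, 1.3 and 1.36 CPM, within a narrow band, and the Trbp-cKO sham hearts held 3.07, 2.67, 2.34 and 2.62 CPM, all above them. After TAC the control hearts held 0.964, 0.645, 2.1 and 1.79 CPM and the Trbp-cKO hearts 0.558, 0.716, 0.396 and 0.127 CPM. The control TAC hearts therefore scattered on both sides of the control sham band, with the 2 hearts of high mitochondrial share below it. The Trbp-cKO TAC hearts, with 28, 46, 27 and 8 counts against 135, 187, 160 and 161 in Trbp-cKO sham, were the lowest group, and 1 of them overlapped the lowest control TAC heart.

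Lyve1 (chr7, 110850607 to 110863239, minus strand), which lymphatic endothelium also expresses, held 17.4, 13.1, 19.1 and 25.1 CPM in control sham and 12.4, 16.9, 17.8 and 14.6 CPM in control TAC hearts. It held 20.7, 14.6, 16.2 and 14.8 CPM in Trbp-cKO sham and 11.4, 9.83, 8.37 and 9.29 CPM in Trbp-cKO TAC hearts. All 4 Trbp-cKO TAC values lay below all 12 others, and the other 3 groups overlapped one another. Mrc1 (chr2, 14229392 to 14332057) held 21.1, 21.2, 20.9 and 25.4 CPM in control sham, 18.1, 20.5, 28.2 and 22.8 CPM in control TAC, 28, 24.2, 20.4 and 27.0 CPM in Trbp-cKO sham and 23.3, 19.7, 18.9 and 14.3 CPM in Trbp-cKO TAC. Its groups overlapped in every pair, and its lowest value was in replicate 4 of Trbp-cKO TAC. Cx3cr1 means ran from 28.8 ± 2.79 CPM in Trbp-cKO sham to 34.99 ± 9.67 CPM in control TAC, where the 2 hearts of high mitochondrial share held 38.8 and 46.8 CPM and the other 2 held 28.3 and 26.0 CPM.

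Ccr2 (chr9, 124101950 to 124113557) was lowest in control sham hearts, at 3.05, 1.20, 0.794 and 1.41 CPM, where replicate 1 stood above the other 3. It held 4.13, 5.10, 3.48 and 2.67 CPM in control TAC, 3.48, 4.02, 4.35 and 4.95 CPM in Trbp-cKO sham and 2.99, 5.23, 7.58 and 4.34 CPM in Trbp-cKO TAC hearts. The last 3 groups overlapped one another. Ccl2 (chr11, 82035571 to 82037453) ran the other way, with 11.4, 6.93, 6.24 and 4.04 CPM in control sham and 4.02, 4.08, 1.66 and 1.90 CPM in control TAC hearts. It held 4.48, 1.85, 2.09 and 2.08 CPM in Trbp-cKO sham and 1.06, 1.51, 4.24 and 1.49 CPM in Trbp-cKO TAC hearts, with a single high heart in each. The receptor and the ligand thus had their lowest and their highest mean, respectively, in control sham hearts.

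**Figure D2:**
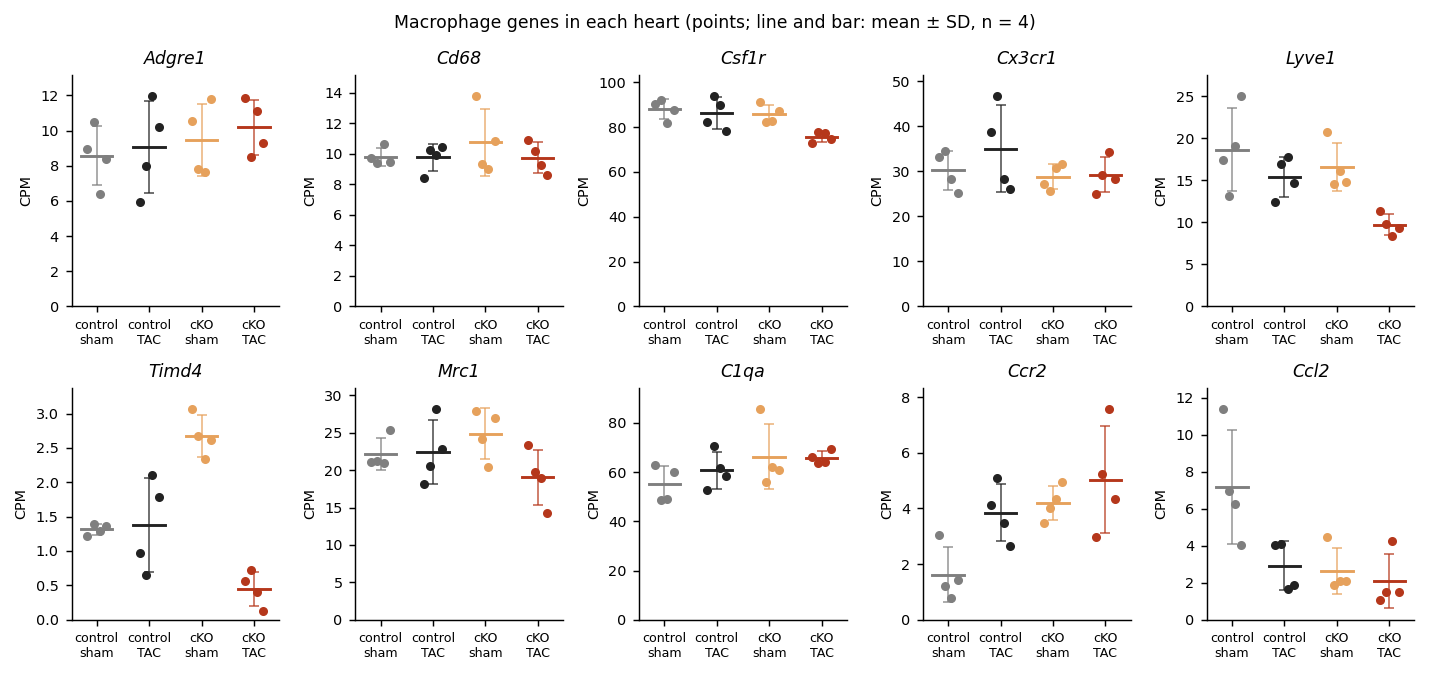
CPM of the 10 genes in each heart (points, replicates 1 to 4 from left to right), with the mean (line) and SD (bar) of the 4 hearts in a group and axes that start at 0; cKO stands for Trbp-cKO. Timd4 is highest in Trbp-cKO sham (2.67 ± 0.299 CPM) and lowest in Trbp-cKO TAC hearts (0.449 ± 0.252 CPM), while the lineage genes overlap between most groups.

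Control TAC was compared with control sham hearts to describe the macrophage genes under pressure overload with Trbp present. None of the 10 genes was called, and 2 of them, Ccr2 and Ccl2, had an unadjusted p under 0.05. Ccr2 averaged 3.84 ± 1.03 CPM after TAC against 1.61 ± 0.991 CPM after sham, log2 fold change 1.25 ± 0.36 (SE), adjusted p = 0.05002, just above the threshold. Ccl2 averaged 2.91 ± 1.32 against 7.15 ± 3.09 CPM (log2 fold change -1.30 ± 0.46 (SE), adjusted p = 0.0953). The resident genes Timd4 (log2 fold change 0.07 ± 0.38 (SE), adjusted p = 0.929) and Lyve1 (log2 fold change -0.27 ± 0.18 (SE), adjusted p = 0.328) did not pass, with 95% intervals of -0.74 to 0.87 and -0.66 to 0.11 on the log2 scale. Of all 19955 genes 3.75% were called in this comparison, 2.50% higher and 1.25% lower, and 26.6% had an unadjusted p under 0.05. No member had groups that did not overlap, against 17.4% of all genes. Called counts among the members were 2 (Ccl2 and Ccr2) with DESeq2 and with edgeR's exact test. Ccr2 was called at an adjusted p of 0.0121 without control sham replicate 1, 0.0431 without control TAC replicate 3 and 0.0284 without control TAC replicate 4, and not without the 2 hearts of high mitochondrial share (log2 fold change 0.93, adjusted p = 0.462).

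Beside the members, 1 of 7 ligands was called higher and 1 lower, and 2 of 15 chemokines were called lower, Ccl7 being on both lists. Il34, the second ligand of CSF1R, rose from 3.22, 2.72, 2.61 and 3.49 CPM in control sham to 7.35, 5.01, 5.32 and 5.53 CPM in control TAC hearts (log2 fold change 0.95 ± 0.22 (SE), adjusted p = 0.0242). Ccl7, a further CCR2 ligand, fell from 5.73, 7.78, 4.30 and 3.35 to 1.73, 2.39, 1.04 and 0.772 CPM (log2 fold change -1.84 ± 0.52 (SE), adjusted p = 0.0489). The eosinophil attractant Ccl11 fell from 2.57, 4.76, 3.68 and 6.05 to 0.855, 0.683, 1.16 and 0.491 CPM (log2 fold change -2.41 ± 0.48 (SE), adjusted p = 0.0115). None of the 17 pan-myeloid, 15 resident macrophage, 9 tested recruited monocyte or 7 MHC class II genes was called by edgeR's quasi-likelihood test, its exact test or DESeq2 (2, 1, 2 and 0 had an unadjusted p under 0.05), and the lists' median log2 fold changes were -0.01, 0.15, -0.02 and 0.12 beside 0.02 over all genes. Of the 9 recruited monocyte genes the exact test covered 6, and DESeq2 gave no adjusted p for 2. The largest monocyte difference was that of Ifitm6 (log2 fold change -1.75 ± 0.55 (SE), adjusted p = 0.0666). Among genes known from macrophages in fibrotic tissue, Cd9 was called higher (log2 fold change 1.00 ± 0.25 (SE), adjusted p = 0.0317) and Trem2 passed the adjusted p alone (log2 fold change 0.47 ± 0.13 (SE), adjusted p = 0.0481). Beside them 2 of 6 fibroblast genes, Col1a1 and Postn, were called higher (list median 0.69), as was the lymphatic gene Ccl21a under both of its identifiers (list median 0.44), and their part in the result was not tested.
These calls depended on single libraries to different degrees. Il34 was lost without control sham replicate 1, 2 or 3 or control TAC replicate 1 (adjusted p up to 0.0889), Cd9 without any 1 control sham heart or control TAC replicate 1 or 2 (up to 0.108), and Ccl7 without any 1 of the 8 hearts (up to 0.128), while Ccl11 was kept without each (up to 0.0401). Trem2 no longer passed without any 1 control sham heart or control TAC replicate 1 or 2 (up to 0.163). None of these genes passed without the 2 control TAC hearts of high mitochondrial share, which left 2 control TAC hearts. There the log2 fold changes of Ccl11 (-2.36, adjusted p = 0.129), Ccl7 (-2.54, adjusted p = 0.121) and Il34 (0.85, adjusted p = 0.179) were close to or beyond those with all hearts, and those of Cd9 (0.47, adjusted p = 0.523) and Trem2 (0.22, adjusted p = 0.633) were smaller.

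Trbp-cKO sham was compared with control sham hearts to describe the deletion without pressure overload. None of the 10 genes was called, where 0.967% of all genes were (0.511% higher and 0.456% lower). Timd4 averaged 2.67 ± 0.299 CPM in Trbp-cKO sham against 1.32 ± 0.0810 CPM in control sham hearts (log2 fold change 1.02 ± 0.37 (SE), adjusted p = 0.212), and Ccr2 averaged 4.20 ± 0.618 against 1.61 ± 0.991 CPM (log2 fold change 1.38 ± 0.36 (SE), adjusted p = 0.0672). In both the 4 Trbp-cKO hearts lay above the 4 control hearts, with an exact two-sided permutation p of 0.0286, the smallest that 70 assignments allow. Such groups without overlap made up 2 of the 10 members and 14.7% of all genes. Ccl2 averaged 2.63 ± 1.24 against 7.15 ± 3.09 CPM (log2 fold change -1.46 ± 0.46 (SE), adjusted p = 0.138), and its groups overlapped. These 3 genes had an unadjusted p under 0.05, as did 13.7% of all genes. Fitted on the 8 hearts of this comparison alone, or by edgeR's exact test, Timd4, Ccr2 and Ccl2 were all called, with DESeq2 Ccr2 and Ccl2 were, and without control sham replicate 1 Ccr2 was (log2 fold change 1.88, adjusted p = 0.0156).

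In the resident macrophage list 13 of 15 genes had a log2 fold change above 0, with a median of 0.39 beside 0.01 over all genes. Fibroblast genes were higher in the same hearts, at 746 to 943 CPM in sum against 570 to 646 CPM in control sham hearts, with 5 of 6 above 0, a median of 0.61 and none called (2 in edgeR's exact test), and their part in the result was not tested. One of the resident genes, Siglec1, a sialic acid receptor of tissue macrophages, was called: it rose from 2.79, 2.14, 1.65 and 2.77 to 4.84, 4.24, 4.99 and 4.89 CPM (log2 fold change 1.02 ± 0.19 (SE), adjusted p = 0.0143). Cybb, the catalytic subunit of the phagocyte oxidase, was the one pan-myeloid gene past the adjusted p in the quasi-likelihood test (log2 fold change 0.79 ± 0.17 (SE), adjusted p = 0.0320), short of the fold threshold, and Cd14, the lipopolysaccharide co-receptor, had a log2 fold change of -0.82 (adjusted p = 0.175, and 0.0432 in edgeR's exact test). The medians of the pan-myeloid, recruited monocyte and MHC class II lists were 0.10, 0.15 and 0.56. All 7 MHC class II genes lay above 0 but none was called by edgeR's quasi-likelihood test or DESeq2. The largest, H2-Eb1 (log2 fold change 1.70 ± 0.75 (SE), adjusted p = 0.325), was called by edgeR's exact test alone (adjusted p = 0.0274). Gpnmb, a glycoprotein of lipid-laden and fibrosis-associated macrophages, was called higher, from 0.814, 0.928, 1.18 and 1.11 to 3.25, 1.84, 3.83 and 2.08 CPM (log2 fold change 1.44 ± 0.33 (SE), adjusted p = 0.0390). Siglec1 lost the call only without control sham replicate 3 among the hearts left out singly (adjusted p = 0.0508), and Gpnmb lost it without each of the 8 (up to 0.123). Cybb no longer passed without control sham replicate 2, 3 or 4 or any 1 Trbp-cKO sham heart (up to 0.112).

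Trbp-cKO TAC was compared with control TAC hearts to describe the deletion under pressure overload. Timd4 fell, from 1.38 ± 0.684 CPM (SD, n = 4) in control TAC to 0.449 ± 0.252 CPM in Trbp-cKO TAC hearts (log2 fold change -1.62 ± 0.40 (SE), adjusted p = 0.0306). It was the only one of the 10 members called, which compares with 2.46% of all genes (1.55% higher and 0.912% lower). Lyve1 passed the adjusted p but not the fold threshold, at 9.72 ± 1.26 against 15.4 ± 2.39 CPM (log2 fold change -0.67 ± 0.18 (SE), adjusted p = 0.0435). Counted by the adjusted p alone, 2 of 10 members and 5.53% of all genes passed. The CPM of Timd4 overlapped between the groups (exact permutation p = 0.0571), while those of Lyve1 and Csf1r did not (0.0286 each), as for 10.05% of all genes. Csf1r did not pass, with a log2 fold change of -0.19 (95% interval -0.37 to -0.01, adjusted p = 0.214).
Ccr2 (log2 fold change 0.39 ± 0.35 (SE), adjusted p = 0.544) and Ccl2 (log2 fold change -0.48 ± 0.46 (SE), adjusted p = 0.583) did not pass. The 95% interval on the log2 scale ran from -0.18 to 0.41 for C1qa and, much wider, from -1.46 to 0.50 for Ccl2.
The call of Timd4 was lost without control TAC replicate 3 (adjusted p = 0.0668), Trbp-cKO TAC replicate 1 (0.0597) or Trbp-cKO TAC replicate 3 (0.0832), in a fit of these 8 hearts alone (0.225) and in edgeR's exact test (0.084). It held without the 2 control TAC hearts of high mitochondrial share (log2 fold change -2.13, adjusted p = 0.0058) and without Trbp-cKO TAC replicate 4 (-1.31, adjusted p = 0.0349). Among the hearts left out singly, Lyve1 passed the adjusted p without control TAC replicate 1 or 4 and not without each of the other 6 (up to 0.121), and it did not pass without the 2 hearts of high mitochondrial share (0.0642) or with these 2 groups only (0.0975), while it passed with DESeq2 (0.0115) and edgeR's exact test (0.0153).

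Across the resident macrophage list 11 of 15 genes lay below 0, with a median of -0.42, while the 17 pan-myeloid genes had a median of 0.00 and all genes -0.01. One resident gene was called, Fcna, a ficolin of tissue macrophages, which fell from 0.909, 1.69, 2.17 and 1.72 to 0.818, 1.04, 0.689 and 0.572 CPM (log2 fold change -1.06 ± 0.27 (SE), adjusted p = 0.0347). The call of Fcna was lost without control TAC replicate 2 or 3 or without Trbp-cKO TAC replicate 1, 3 or 4 (adjusted p up to 0.0944), with no filter (0.0575), with these 2 groups only (0.174) and in edgeR's exact test (0.0576). It held without the 2 control TAC hearts of high mitochondrial share (log2 fold change -1.33, adjusted p = 0.0137). No pan-myeloid or MHC class II gene was called by any of the 3 tools, although all 7 of the latter lay above 0 (median 0.49). The largest cytokine difference, Tnf, did not pass (log2 fold change -0.89 ± 0.27 (SE), adjusted p = 0.0661), was called with DESeq2 (0.0236) and without control TAC replicate 3 or 4, and shrank to a log2 fold change of -0.18 (adjusted p = 0.703) without the 2 hearts of high mitochondrial share. Cx3cl1, the ligand of CX3CR1, passed the adjusted p alone, from 24.3, 26.6, 16.8 and 20.2 to 27.9, 33.8, 33.4 and 41.7 CPM (log2 fold change 0.64 ± 0.14 (SE), adjusted p = 0.0145). It did so without each heart, but not with these 2 groups only (0.174) or in edgeR's exact test (0.0727).
Of the 9 tested genes known from macrophages in fibrotic tissue 2 were called, both higher. The list was mixed, with 5 of 9 above 0 (median log2 fold change 0.51). At an unadjusted p under 0.05 (21.4% of all genes) 4 were higher and 1 was lower. Gpnmb rose from 1.05, 1.44, 1.56 and 1.14 to 17.3, 6.07, 11.1 and 6.26 CPM (log2 fold change 2.97 ± 0.34 (SE), adjusted p = 0.000163), with no overlap. The log2 fold change of Gpnmb was 2.90 (adjusted p = 0.00321) without the 2 control TAC hearts of high mitochondrial share and 3.14 (adjusted p = 9.1e-05) without Trbp-cKO TAC replicate 4. Lgals3, the lectin galectin-3, rose from 8.09, 13.9, 4.59 and 3.46 to 29.7, 11.2, 34.3 and 142 CPM (log2 fold change 2.86 ± 0.63 (SE), adjusted p = 0.0169), with its highest value in Trbp-cKO TAC replicate 4, and its call was lost without control TAC replicate 1 (adjusted p = 0.0514) and with these 2 groups only (0.168). Without that Trbp-cKO TAC heart the log2 fold change of Lgals3 was 1.74 (adjusted p = 0.0306). Both can be made by cells other than macrophages. Beside them the fibroblast list had 2 of 6 genes called higher, with 3 of 6 above 0 and a median log2 fold change of 0.02.

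**Figure D3:**
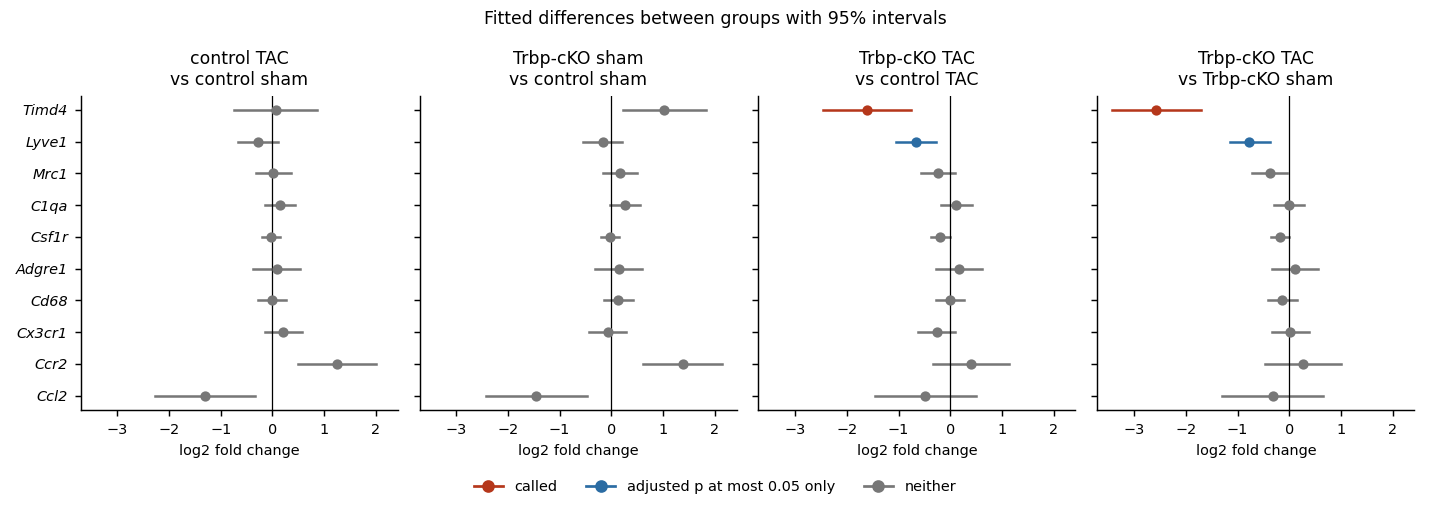
Fitted log2 fold change of each gene (point) with its 95% interval (line) in the 4 comparisons between groups, from the edgeR fit of 16 hearts. Timd4 is called in both comparisons with Trbp-cKO TAC hearts and Lyve1 passes the adjusted p alone, and the intervals of the lineage genes lie close to 0.

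Trbp-cKO TAC was compared with Trbp-cKO sham hearts to describe pressure overload once Trbp was lost. Timd4 fell from 2.67 ± 0.299 to 0.449 ± 0.252 CPM (log2 fold change -2.57 ± 0.40 (SE), adjusted p = 0.000827, 95% interval -3.43 to -1.71). It was the one member called, beside 5.57% of all genes (3.23% higher and 2.34% lower). Lyve1 passed the adjusted p at 9.72 ± 1.26 against 16.6 ± 2.85 CPM (log2 fold change -0.77 ± 0.18 (SE), adjusted p = 0.0132), just short of the fold threshold, so that 2 of 10 members passed by adjusted p alone, beside 9.94% of all genes. The groups did not overlap for Timd4, Lyve1 and Csf1r, 3 of 10 members, nor for 17.2% of all genes. Mrc1 (log2 fold change -0.38 ± 0.16 (SE), adjusted p = 0.149) and Csf1r (log2 fold change -0.18 ± 0.08 (SE), adjusted p = 0.212) did not pass, and neither did Ccr2 (log2 fold change 0.26 ± 0.34 (SE), adjusted p = 0.729) or Ccl2 (log2 fold change -0.32 ± 0.46 (SE), adjusted p = 0.756). The Timd4 call held in all 17 alternatives, with adjusted p from 7.5e-09 to 0.00516, and Lyve1 was also called without Trbp-cKO sham replicate 2 (log2 fold change -0.83), Trbp-cKO sham replicate 4 (-0.82) or Trbp-cKO TAC replicate 1 (-0.85).

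Further resident macrophage genes fell with Timd4. Of the 15 genes on that list 4 were called lower and none higher, and 12 lay below 0 with a median of -0.69 beside 0.00 for all genes. Folr2, the folate receptor β of resident macrophages, fell from 12.4, 7.10, 7.70 and 7.88 to 4.13, 4.36, 3.81 and 1.33 CPM (log2 fold change -1.36 ± 0.30 (SE), adjusted p = 0.00971). Clec10a, a galactose-binding lectin, fell from 2.70, 2.12, 1.81 and 1.98 to 0.419, 0.997, 1.28 and 0.492 CPM (log2 fold change -1.42 ± 0.28 (SE), adjusted p = 0.00444). Each of these pairs was separate, with all 4 TAC values below all 4 sham values. Fcna fell by 1.75 (adjusted p = 0.000700) and Pf4, a platelet and macrophage chemokine, by 0.82 (adjusted p = 0.00529) on the log2 scale. Siglec1 passed the adjusted p alone (log2 fold change -0.69 ± 0.19 (SE), adjusted p = 0.0266). Replicate 4 of Trbp-cKO TAC had the lowest Folr2, Mrc1, F13a1 (6.35 against 18.2 to 29.8 CPM in its group) and Cbr2 (2.68 against 10.6 to 11.2 CPM). Without it 3 list genes were called and the median was -0.62, and Folr2, Clec10a and Fcna kept their calls without each heart (adjusted p up to 0.0377). Pf4 lost its call without Trbp-cKO sham replicate 1 or Trbp-cKO TAC replicate 3 or 4, through the fold threshold alone (adjusted p up to 0.0201), and Siglec1 no longer passed without 6 of the 8 hearts, all but Trbp-cKO sham replicate 2 and Trbp-cKO TAC replicate 1 (up to 0.0719).
None of the 17 pan-myeloid genes was called by any of the 3 tools, 1 had an unadjusted p under 0.05 (as did 22.98% of all genes) and their median was 0.02, and the medians of the recruited monocyte and MHC class II lists were 0.10 and 0.05. Among chemokines Ccl11 fell from 4.84, 3.79, 3.86 and 3.43 to 0.199, 0.467, 0.279 and 0 CPM (log2 fold change -4.05 ± 0.54 (SE), adjusted p = 0.000225), and Ccl6, a macrophage chemokine, from 15.4, 9.77, 10.3 and 9.29 to 7.18, 6.07, 4.31 and 3.59 CPM (log2 fold change -1.08 ± 0.28 (SE), adjusted p = 0.0218). Ccl6 lost its call without Trbp-cKO sham replicate 1 or Trbp-cKO TAC replicate 3 or 4 (up to 0.0735). Cx3cl1 passed the adjusted p alone (log2 fold change 0.67 ± 0.14 (SE), adjusted p = 0.00482).
Gpnmb (log2 fold change 1.89 ± 0.32 (SE), adjusted p = 0.00140), Lgals3 (log2 fold change 3.83 ± 0.66 (SE), adjusted p = 0.00151) and osteopontin, Spp1 (log2 fold change 1.06 ± 0.28 (SE), adjusted p = 0.0250), were called higher in the same hearts in which Timd4, Folr2 and Clec10a were lower. Gpnmb and Lgals3 kept their calls without each heart, the log2 fold change of Lgals3 being 2.72 without Trbp-cKO TAC replicate 4, and Spp1 lost its own without Trbp-cKO sham replicate 1, 2 or 4 or Trbp-cKO TAC replicate 4 (up to 0.0808).

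**Figure D4:**
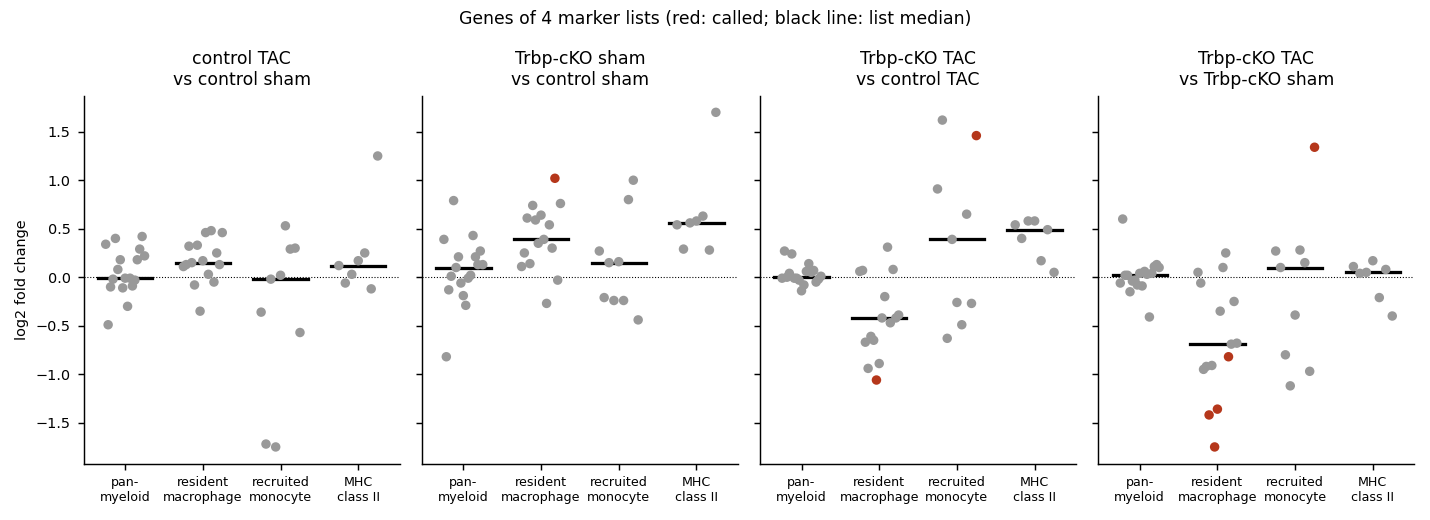
Log2 fold change of each gene (points, red where called) of the pan-myeloid, resident macrophage, recruited monocyte and MHC class II lists in the 4 comparisons, with the list median as a black line. Resident macrophage genes sit mostly above 0 in Trbp-cKO sham hearts (median 0.39) and mostly below 0 in both comparisons with Trbp-cKO TAC hearts (medians -0.42 and -0.69), while the pan-myeloid medians stay within 0.10 of 0.

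The interaction asked whether the effect of TAC differed between Trbp-cKO and control hearts, that is, the change after TAC in Trbp-cKO hearts less that in control hearts. Timd4 was the one member called (log2 fold change -2.64 ± 0.55 (SE), adjusted p = 0.0353), beside 0.872% of all genes (0.446% higher and 0.426% lower). Its log2 fold change after TAC was 0.07 in control hearts and -2.57 in Trbp-cKO hearts. Lyve1 (log2 fold change -0.50 ± 0.25 (SE), adjusted p = 0.372), Mrc1 (log2 fold change -0.40 ± 0.22 (SE), adjusted p = 0.410), Ccr2 (log2 fold change -0.99 ± 0.49 (SE), adjusted p = 0.358) and Ccl2 (log2 fold change 0.98 ± 0.65 (SE), adjusted p = 0.496) did not pass. On the resident macrophage list 14 of 15 genes lay below 0, with a median of -0.94 beside -0.01 for all genes, and edgeR called none of them while 8 had an unadjusted p under 0.05, as did 15.4% of all genes. The largest were Folr2 (log2 fold change -1.53 ± 0.43 (SE), adjusted p = 0.100) and Fcna (log2 fold change -1.40 ± 0.37 (SE), adjusted p = 0.0820), and DESeq2 called both, with 4 of the list in all. Fcna was also called without control TAC replicate 1 and without both control TAC hearts of high mitochondrial share.
The Timd4 interaction was close to its threshold. Its adjusted p rose to between 0.0562 and 0.0888 without any 1 of the 8 sham hearts, control TAC replicate 3 or Trbp-cKO TAC replicate 1 or 3, with log2 fold changes between -2.75 and -2.36. It was 0.00754 (log2 fold change -3.14) without the 2 control TAC hearts of high mitochondrial share, and 0.0209 (-2.33) without Trbp-cKO TAC replicate 4.

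Markers of other cells were measured beside these results. Lymphatic endothelial genes (Prox1, Pdpn, Flt4, Mmrn1, Reln and Ccl21a), which bear on Lyve1, summed to 93.7 to 142 CPM in Trbp-cKO TAC, 103 to 118 in Trbp-cKO sham and 104 to 136 CPM in control TAC hearts. In each comparison with Trbp-cKO TAC hearts 1 of them, Reln, was called higher and none lower. Against control TAC hearts, however, only 2 of the 7 tested identifiers lay above 0 (median log2 fold change -0.16), and the exact test called none. Against Trbp-cKO sham hearts 5 of 7 lay above 0 (median 0.20), and in the interaction 1 of 7 did (median -0.20). The part of lymphatic genes in the Lyve1 result was not tested. Fibroblast genes summed to 1390 to 2630 CPM in Trbp-cKO TAC against 746 to 943 in Trbp-cKO sham and 795 to 1530 CPM in control TAC hearts. In each of these comparisons 2 of 6 were called higher, but only 3 of 6 lay above 0. The median log2 fold change was 0.07 against Trbp-cKO sham and 0.02 against control TAC hearts. In the interaction 2 of 6 lay above 0 (median -0.21) and 1 was called lower. The part of fibroblast genes in the result was not tested. Neutrophil genes, of which 4 of 7 were tested, summed to 5.52 to 11.4 CPM in control sham and 4.28 to 5.34 CPM in Trbp-cKO sham hearts, highest in control sham replicate 1, which also had the highest Ccl2 and Ccr2 of its group. None of the 4 was called by the quasi-likelihood test in any of the 5 contrasts. With an unadjusted p under 0.05, all 4 were lower after the deletion without TAC (median log2 fold change -1.67) and 3 after TAC in control hearts (-1.52), the comparisons in which the Ccl2 mean was also lower, and the interaction median was 2.43. DESeq2 called 2 and 1 of them lower in these comparisons, and S100a8 and S100a9 higher in the interaction. The exact test covered 3 of the 4. It called S100a8 and S100a9 lower after the deletion without TAC and higher after TAC in Trbp-cKO hearts. It called none after TAC in control hearts. The part of neutrophil genes in the result was not tested. Immediate early genes summed to 275 to 281 CPM in 3 control sham hearts and to 880 CPM in replicate 2. Ccl2 was highest in replicate 1. In Trbp-cKO against control sham hearts their median log2 fold change was -0.99, with 1 of 8 above 0. At an unadjusted p under 0.05 (13.7% of all genes) 4 were lower and 1 higher. The quasi-likelihood test called none, the exact test 2 lower and DESeq2 1 lower. In the interaction the median was 0.94, with 8 of 8 above 0 and 1 called higher. Their part in the result was not tested. Lymphocyte and natural killer genes stayed between 2.15 and 5.74 CPM, and dendritic and mast cell genes between 25.0 and 63.1 CPM with the maximum in control TAC replicate 2. Of the 8 dendritic and mast cell genes 1 was called lower in Trbp-cKO against control TAC hearts, and of the 8 immediate early genes 1 was called higher in each comparison with Trbp-cKO TAC hearts. Blood endothelial genes (Pecam1 and others) lay below 0 for 6 of 6 in Trbp-cKO against control TAC hearts, with a median log2 fold change of -0.47 and 3 at an unadjusted p under 0.05 (as for 21.4% of all genes), beside the resident macrophage median of -0.42. In the 2 control TAC hearts of high mitochondrial share they summed to 2080 and 2140 CPM. The other control TAC hearts held 1100 and 1120 CPM, and Trbp-cKO TAC hearts 916 to 1600 CPM. After TAC in control hearts all 6 blood endothelial genes lay above 0 (median 0.44). Their median was -0.56 in the interaction, with 6 of 6 below 0, and -0.09 after TAC within the Trbp-cKO arm, and their part in the result was not tested. No gene of the blood endothelial, cardiomyocyte, erythroid or lymphocyte lists was called in any contrast by any of the 3 tools, and no cytokine by the quasi-likelihood test, while DESeq2 and the exact test called Il6 higher and Tnf lower after TAC in Trbp-cKO hearts. The exact test did not cover the interaction. In some contrasts it covered 7 of the 8 tested lymphocyte genes, and DESeq2 gave no adjusted p for 1 of them. Proliferation genes, by which resident macrophages among other cells renew, were called higher for 1 of 6 in control TAC against control sham hearts, where all 6 lay above 0 at an unadjusted p under 0.05 (median 0.86). None was called in the comparisons with Trbp-cKO TAC hearts. All 6 lay below 0 against control TAC hearts (median -0.32) and in the interaction (median -0.66). They all lay above 0 after TAC within the Trbp-cKO arm (median 0.16) and in Trbp-cKO against control sham hearts (median 0.44).

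Related to Csf1r within each heart, a ratio that library scaling does not touch, Timd4 stood at 2.83% to 3.36% of the Csf1r CPM in Trbp-cKO sham, 1.34% to 1.59% in control sham, 0.686% to 2.34% in control TAC and 0.170% to 0.919% in Trbp-cKO TAC hearts. Lyve1 stood at 10.8% to 15.6% of Csf1r in Trbp-cKO TAC hearts and at 14.2% to 28.6% in the other 12, and the ranges overlapped. Ccr2 stood at 0.972% to 3.37% of Csf1r in control sham and at 3.40% to 9.80% in the other 12 hearts.

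Timd4 and Mrc1 were the pair of members most alike across the 16 hearts (Pearson r of log2 CPM 0.80, Spearman rho 0.71), also within groups (r = 0.76 of the deviations from group means), and r was 0.66 over the 15 hearts without Trbp-cKO TAC replicate 4. Lyve1 and Timd4 (r = 0.67) and Csf1r and Lyve1 (r = 0.68) were alike mainly through their group means, since r within groups was 0.18 and 0.14. Ccr2 and its ligand Ccl2 had r = -0.41 over all hearts and 0.59 within groups. Within groups Cx3cr1 had r = -0.51 with Timd4, -0.49 with Mrc1 and -0.45 with Lyve1. With Ccr2 and Ccl2 its r within groups was 0.62 and 0.71. The hearts share groups, libraries and scaling, so these coefficients are a description. Among 14489 genes of sufficient level, the 3 most like Timd4 were Pla2g2d (r = 0.94), Folr2 (0.93) and Map2k6 (0.93), with 0.89, 0.87 and 0.89 without Trbp-cKO TAC replicate 4. Most like Mrc1 were F13a1 (0.93), Gm48630 (0.90) and Folr2 (0.85), and most like Lyve1 were Trip10, Lypla2 and Ccl6 (0.89 each). C1qa was closest to C1qc (0.96) and C1qb (0.94), the other chains of C1q, and to Tyrobp (0.86), and Ccl2 to Ccl7 (0.92), Magohb (0.84) and Ybx3 (0.83). Cx3cr1 was closest to Gm42892 (0.88), Bin2 (0.87) and Mov10 (0.86), Cd68 to Erap1 (0.82), Cd48 (0.76) and BC023105 (0.73), and Ccr2 to Car13, S1pr2 and Rap2b (0.85 each). Csf1r was closest to Dkc1 (0.84), Aqp4 (0.81) and Crybb1 (0.80), and Adgre1, with the weakest likeness, to Pigt (0.78), Efcab14 (0.75) and Sgpp1 (0.75).

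**Figure D5:**
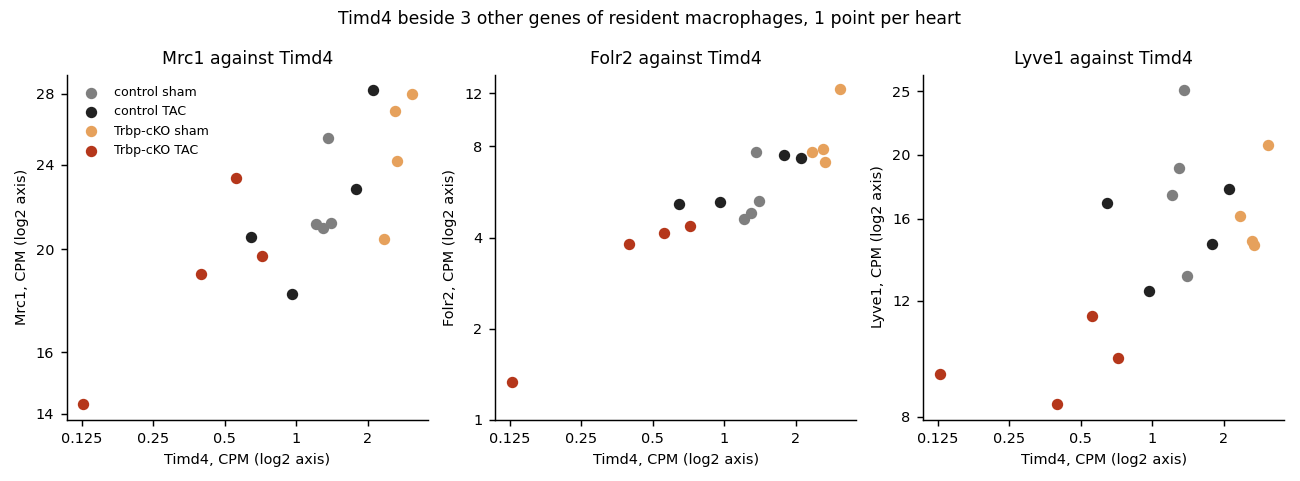
Mrc1, Folr2 and Lyve1 against Timd4 in CPM, on log2 axes, with 1 point per heart. The 4 Trbp-cKO TAC hearts lie at the low Timd4 end (0.127 to 0.716 CPM) and the 4 Trbp-cKO sham hearts at the high end (2.34 to 3.07 CPM), and replicate 4 of Trbp-cKO TAC is the lowest point for Timd4, Mrc1 and Folr2.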

How the data were processed

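Poly(A) RNA from the ventricles of 16 male mice, 1 heart per library, was sequenced. Per the labels and the study's methods, the authors used Cutadapt 2.3 for trimming, HISAT2 2.1.0 for alignment to GRCm38 and StringTie 1.3.4 for quantification. The deposited values are raw counts per gene, written by StringTie's script from coverage and an assumed read length, so they can exceed the number of fragments by a common factor. The GENCODE release is not given in the sources used here. Totals ran from 45166994 to 68274222 counts per heart.

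Groups were taken from the labels. Counts of 19955 genes kept by edgeR's low-count filter were scaled by TMM and fitted over all 16 hearts with edgeR 4.0.16 (R 4.3.3, robust quasi-likelihood), with Benjamini-Hochberg adjustment over all of them. Genes were called at an adjusted p of 0.05 or less with a log2 fold change of 0.8 or more in either direction. Single values were also compared by an exact two-sided permutation test over 70 assignments. Replicates are separate mice, so p-values measure the spread between mice. Named genes are the 10 members, every called gene of the myeloid, ligand and chemokine lists (up to 4 of the largest where none was called) and the 3 genes most like each member. The members and lists were chosen with earlier results of these data known. Some results for genes outside the 10 members are not reported here. Gene positions and exon lengths came from GENCODE on GRCm38, and the fit was tested on simulated counts. Alternatives were other scalings, filters and fold thresholds, halved counts, a replicate block, fits of 2 groups only, edgeR's exact test, DESeq2 1.42.0, each heart left out, and, chosen after seeing the data, leaving out 2 control TAC hearts with over 35% mitochondrial counts.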

Additional observations from a re-analysis of the deposited data

Results flagged for a closer look

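In 3 of the 40 sets of 4 hearts (10 genes in 4 groups) a single heart stood apart from the other 3 by Dixon's criterion, and chance gives about 1 in 20. Mrc1 in control sham hearts had 1 heart at 25.42 CPM, whose gap to the nearest heart was 0.952 of the group's range. Ccl2 had 1 heart at 4.476 CPM in Trbp-cKO sham (0.909 of the range) and 1 at 4.238 CPM in Trbp-cKO TAC (0.857). The effect of TAC on Timd4 differed between Trbp-cKO and control hearts, with an interaction of -2.64 on the log2 scale (edgeR, adjusted p = 0.0353). Timd4 was lower in all 4 Trbp-cKO TAC hearts than in all 4 Trbp-cKO sham hearts, whereas control TAC hearts lay on both sides of control sham hearts.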

How the results depend on the processing

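Of 940 alternative values of the members' log2 fold changes, 848 kept direction and side of the threshold, 51 changed sign, 23 became called and 18 lost a call. The number of members called after TAC in control hearts, 0, became 1 with TMM without mitochondrial genes, a filter of 1 CPM in 4 hearts or halved counts and 2 with edgeR's exact test or DESeq2, and ran from 0 to 1 leaving out each heart. In Trbp-cKO against control sham hearts it became 1 by library size only, 3 with 2 groups only or the exact test and 2 with DESeq2, and ran from 0 to 1. In Trbp-cKO against control TAC hearts the count of 1 became 2 without a fold threshold and 0 with the block, 2 groups only or the exact test, and ran from 0 to 1. After TAC in Trbp-cKO hearts it became 2 without a fold threshold and ran from 1 to 2. The interaction count of 1 became 0 with the block and ran from 0 to 1.

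Sign changes were of members that were not called. After TAC in control hearts Cd68 became 0.01 (filter of 1 CPM), 0.00 (halved counts) and 0.05 (without the 2 hearts of high mitochondrial share), Cx3cr1 -0.16 without those hearts, and Mrc1 -0.01 without a filter and -0.01 with DESeq2. In Trbp-cKO against control sham hearts Csf1r became 0.06 and Cx3cr1 0.03 by library size only. In Trbp-cKO against control TAC hearts Adgre1 became -0.14, Cx3cr1 0.09 and Ccl2 0.22 without the 2 hearts, and Cd68 0.13 by library size only, 0.01 without a filter and 0.02 with DESeq2. After TAC in Trbp-cKO hearts C1qa became 0.04 by library size only and 0.00 with the block. Without the 2 hearts the interaction became -0.27 for Adgre1 and 0.17 for Cx3cr1. Leaving out each heart gave, after TAC in control hearts, -0.09 to 0.23 for Adgre1, -0.04 to 0.05 for Cd68, -0.08 to 0.01 for Csf1r, -0.22 to 0.30 for Timd4 and -0.12 to 0.10 for Mrc1. Cd68 ran from -0.02 to 0.21 in Trbp-cKO against control sham hearts and from -0.07 to 0.06 in Trbp-cKO against control TAC hearts. After TAC in Trbp-cKO hearts the ranges were -0.07 to 0.09 for Cx3cr1, -0.08 to 0.14 for C1qa, -0.00 to 0.44 for Ccr2 and -0.94 to 0.05 for Ccl2. In the interaction they were -0.13 to 0.20 for Adgre1, -0.21 to 0.01 for Cd68 and -0.22 to 0.00 for C1qa. The cause was not tested.

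Replicate numbers did not pair the hearts: same-numbered hearts correlated at -0.427 to 0.21, and 4 of 24 matched their own number best. With the replicate block Timd4 had an adjusted p of 0.0874 in Trbp-cKO against control TAC hearts and 0.106 in the interaction, and other member counts did not change. Among the other genes named, the block ended the call or the adjusted p of Fcna and Lgals3 (Trbp-cKO against control TAC), Cybb and Gpnmb (Trbp-cKO against control sham), Siglec1, Ccl6 and Spp1 (after TAC in Trbp-cKO hearts) and Ccl7 and Cd9 (after TAC in control hearts). A fit of 2 groups only also ended those of Cd9, Trem2 and Spp1, the exact test that of Trem2, no filter those of Ccl7, Trem2 and Gpnmb (Trbp-cKO against control sham), and library size only that of Pf4. Scaling by library size only moved the median of all genes to 0.11 in Trbp-cKO against control sham hearts and to 0.13 in Trbp-cKO against control TAC hearts. Depth limits Timd4 most, at 8 to 187 counts per heart.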
